A study of Mus musculus with 12 samples.

Results

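The 39 genes described here encode the machinery that carries a cell from G1 into S phase and copies its DNA. They were taken by name, and each was read from its brightest probe set with a single gene symbol. Of the 39, 38 had such a probe set and all 38 were bright enough to be tested, among 18194 genes with such a probe set and 12582 tested in all. Chaf1a, a subunit of the histone chaperone CAF-1, had none and is not described further. By role, the 38 were 4 regulators of entry into S phase, 9 origin licensing genes, 6 genes of helicase activation, 4 of primase and DNA polymerase alpha, 8 of the clamp, the fork and the lagging strand, 4 of nucleotide supply and 3 of chromatin and histone supply.

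In G1, the origin recognition complex, Cdc6 and Cdt1 load the MCM helicase onto origins. When cyclin E and its kinase become active and E2F factors drive transcription, Cdc45 and the GINS complex switch the helicase on, and primase, the sliding clamp and the polymerases build the forks. Most of these genes are E2F targets, and their transcripts are abundant in cycling marrow progenitors and low in quiescent stem cells and in mature granulocytes.

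Leukemia was driven in mice by MLL-AF9 or by MLL-NRIP3, both fusions of the MLL gene, and in each model 3 arrays came from control leukemia, labelled Rictor wild type, and 3 from Rictor-deleted leukemia, labelled RictorΔ/Δ. Rictor is the subunit that defines mTORC2, a kinase complex. All 12 samples were bone marrow cells labelled K+G–, sorted after the first transplantation when more than 50% of white blood cells in the recipient's blood were CD45.2+. The labels name peripheral blood as host tissue. The series asks which molecular events follow Rictor loss, first with MLL-AF9 and then with MLL-NRIP3. How Rictor was deleted, and the strain and age of the mice, are not stated in the labels. They also do not say that the arrays within a group are from different animals, and p-values then cover only array-to-array spread, which may be technical.

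Values are intensities of Affymetrix probe sets on a linear scale. Below, the 3 control arrays of a model come first, in the order of their replicate numbers, and the 3 deleted arrays follow after the word against. Log2 fold changes are deleted minus control with their standard error. A brighter probe set of one gene cannot be set against that of another. Median intensities were 8.16 to 8.36 on the MLL-AF9 arrays and 13.6 to 14.2 on the MLL-NRIP3 arrays, so levels across the models are not on 1 scale. For MLL-AF9 the Rictor probe set gave 84.4, 92.4 and 83.7 against 77.9, 88.1 and 96.4, and for MLL-NRIP3 87.5, 111 and 139 against 84.5, 107 and 121. Its groups overlapped in both models, and where it lies relative to the deleted part is not known here, so it does not check the labels. Ptprc, the leukocyte antigen CD45, had log2 fold changes of 0.03 and -0.02. In MLL-AF9, Xist, expressed from the inactive X chromosome, differed by -4.70 ± 0.39 on the log2 scale (SE, deleted minus control) and the Y-linked Eif2s3y by 3.08 ± 0.11, so genotype and the sex of the mice cannot be told apart in that model. MLL-NRIP3 control arrays 1 and 2 stood apart, with hybridization controls at 11.2 and 10.6 on the log2 scale, against 9.38 to 9.59 on the other 4 arrays of the model, and Gapdh 5′ to 3′ ratios of 0.562 and 0.738, against 0.881 to 0.965.

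Because E2F factors are the best known shared regulators of these genes, the promoters were read for E2F letters. RefSeq windows of GRCm38.p6, 250 bases before to 50 bases after a start, were given for 32 of the 39 genes, and not for Ccne2, Gins1, Gins2, Gins4, Mcm4, Prim2 and Tipin. Any of the words TTTGGCGC, TTTCCCGC, TTTCGCGC and TTTGCCGC, on either strand, stood in 13 of the 32 genes (40.6%), against 2.6% of all 27025 genes in the table. The genes were Cdc6, Cdt1, E2f2, Gins3, Lig1, Mcm3, Mcm5, Mcm6, Mcm7, Orc1, Pola1, Rfc3 and Uhrf1. CCAAT, the box bound by NF-Y, stood in 62.5% of the 32 genes and 41.1% of all genes, and TTTGAA, the CHR word known from promoters of G2 and M phase genes, in 15.6% and 20.2%. In a list of 34 G2 and M phase genes with windows, 8.82% had E2F letters, 85.3% CCAAT and 79.4% the CHR word. A match is a description of letters and not a binding site, and base composition was not matched between lists.

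The stretches below are from genes whose values are described in the following paragraphs, with the E2F letters in capitals and all printed 5′ to 3′ on the strand of the gene. Where the letters read GCGGGAAA or GCGCGAAA, the match is on the opposite strand. In Mcm5 a pair of matches on opposite strands overlap, and in Rfc3 a pair stand side by side.
E2f2 (chr4:136172303-136172323, plus strand): cggcatatagTTTGGCGCtaa
Uhrf1 (chr17:56304118-56304145, plus strand): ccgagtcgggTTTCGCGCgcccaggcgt
Cdc6 (chr11:98908003-98908030, plus strand): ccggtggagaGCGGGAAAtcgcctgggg
Orc1 (chr4:108579417-108579444, plus strand): tcggttagtgGCGCGAAAagttttctcc
Gins3 (chr8:95633508-95633535, plus strand): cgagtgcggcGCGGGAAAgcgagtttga
Mcm5 (chr8:75109347-75109376, plus strand): gccaagaacTTTCGCGCCAAAacgtccagc
Rfc3 (chr5:151651195-151651224, minus strand): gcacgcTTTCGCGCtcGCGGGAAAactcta
The promoter of Mcm6, a subunit of the MCM helicase, had the most matches, 3 in the 250 bases before the start, of which 2 overlap on opposite strands.
Mcm6 (chr1:128359706-128359955, minus strand): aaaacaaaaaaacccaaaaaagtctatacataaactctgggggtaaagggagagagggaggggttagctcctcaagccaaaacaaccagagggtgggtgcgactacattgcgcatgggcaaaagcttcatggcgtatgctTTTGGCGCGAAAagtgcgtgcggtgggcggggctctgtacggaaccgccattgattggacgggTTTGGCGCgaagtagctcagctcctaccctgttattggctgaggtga

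**Figure D1:**
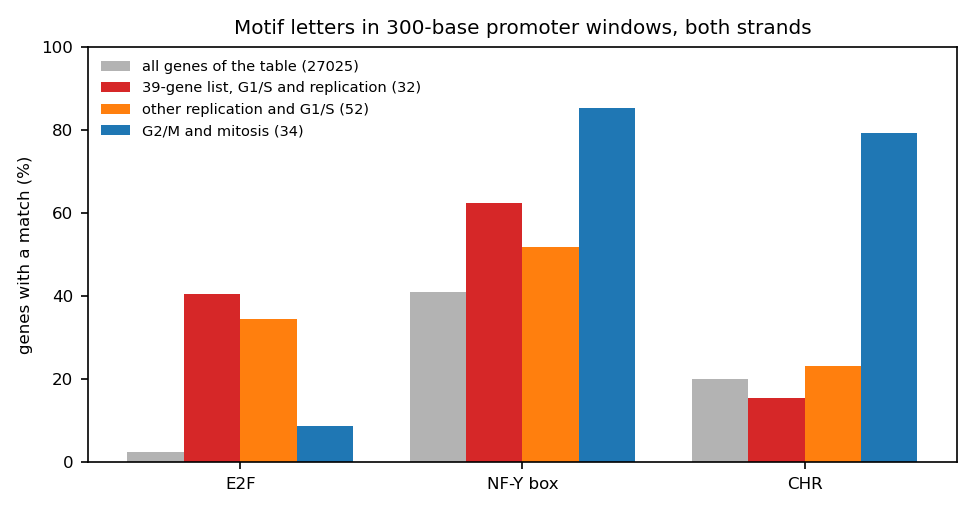
Share of genes (%, from 0 to 100) whose 300-base promoter window holds each motif on either strand, for all genes of the table (grey, 27025), the 39-gene list (red, 32 with a window), other replication and G1/S genes (orange, 52 with a window) and G2/M genes (blue, 34 with a window). E2F letters stand in 40.6% of the red and 2.6% of the grey genes, the CCAAT word (NF-Y box) in 62.5% and 41.1%, and the CHR word in 15.6% and 20.2%.

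Rictor-deleted MLL-AF9 leukemia had higher transcript levels of a few replication genes, by small amounts. Rrm2, E2f2, Tipin, Uhrf1, Rfc4 and Cdc45 rose, with log2 fold changes from 0.23 to 0.59, and none of the 38 fell (limma on each model's own 6 arrays, Benjamini-Hochberg adjusted p under 0.05 over 12582 genes). The 6 genes are 15.8% of the 38, where 8.26% of all genes tested were called, 3.79% higher and 4.47% lower. In 14 of the 38 the 3 deleted arrays all lay above the 3 controls and in 0 all below, against 11.3% and 15.7% of all genes. The log2 fold change was above 0 in 34 of the 38 (45.7% of all genes), with a median of 0.12 (all genes, -0.01) and a range from -0.07 to 0.59. Since fewer cells of a type and less RNA per cell cannot be told apart in bulk samples, these are levels in the sorted population. Fold changes are on the scale of log2(intensity + 16), which understates those of dim genes.

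The count of 6 moved when single arrays were left out. It was 9 without control 1, 3 without control 2 and 2 without control 3. It was 3 without deleted array 1, and 2 without deleted array 2 or 3. Rrm2 and E2f2 were called in all 6 cases. In the same order, 960, 858, 721, 710, 587 and 664 of all 12582 genes were called, against 1039 with all arrays. Of these, 479, 437, 329, 352, 313 and 360 were higher, against 477 with all arrays. With hybridization control signal in the fit the count among the 38 was 3 (Rrm2, E2f2 and Tipin), where 6.8% of all genes were called, 3.21% higher. One fit over all 12 arrays with a spread shared by both models called 1 gene, Rrm2, where it called 1.38% of all genes in MLL-AF9, 0.93% higher. Unadjusted p-values were under 0.05 with higher levels for 14 of the 38 (9.35% of all genes). Leaving out deleted array 2 moved the median change from 0.12 to 0.07.

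In Rictor-deleted MLL-NRIP3 leukemia none of the 38 genes was called in either direction, where 1.56% of all genes tested were called, 0.795% higher and 0.763% lower. Unadjusted p-values in limma were under 0.05, all with higher levels after deletion, for 6 of the 38 (Ccne2, Slbp, Pcna, Mcm5, Prim1 and Rfc4), against 7.89% of all genes. The fit over all 12 arrays called 4, Ccne2, Slbp, Pcna and Mcm5, all higher, where it called 13.7% of all genes, 5.95% higher. Individual array weights, estimated by limma from the fit of each array, called 9, all higher, among them the 6 with an unadjusted p under 0.05, Tipin and Mcm4, where 23.8% of all genes were called, 13.2% higher. The deleted arrays all lay above the controls in 9 of the 38 and all below in 0, against 9.7% and 12.7% of all genes. The fold change was above 0 in 29 (50% of all genes), with a median of 0.16 and a range from -0.28 to 0.89. Without control 3 a single gene, Ccne2, was called, with an adjusted p of 0.031, where 865 of all 12582 genes were called, 363 higher. Both models had a fold change above 0 for 26 of the 38 (25.1% of all genes), MLL-AF9 alone for 8, MLL-NRIP3 alone for 3, and neither for Gins1.

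**Figure D2:**
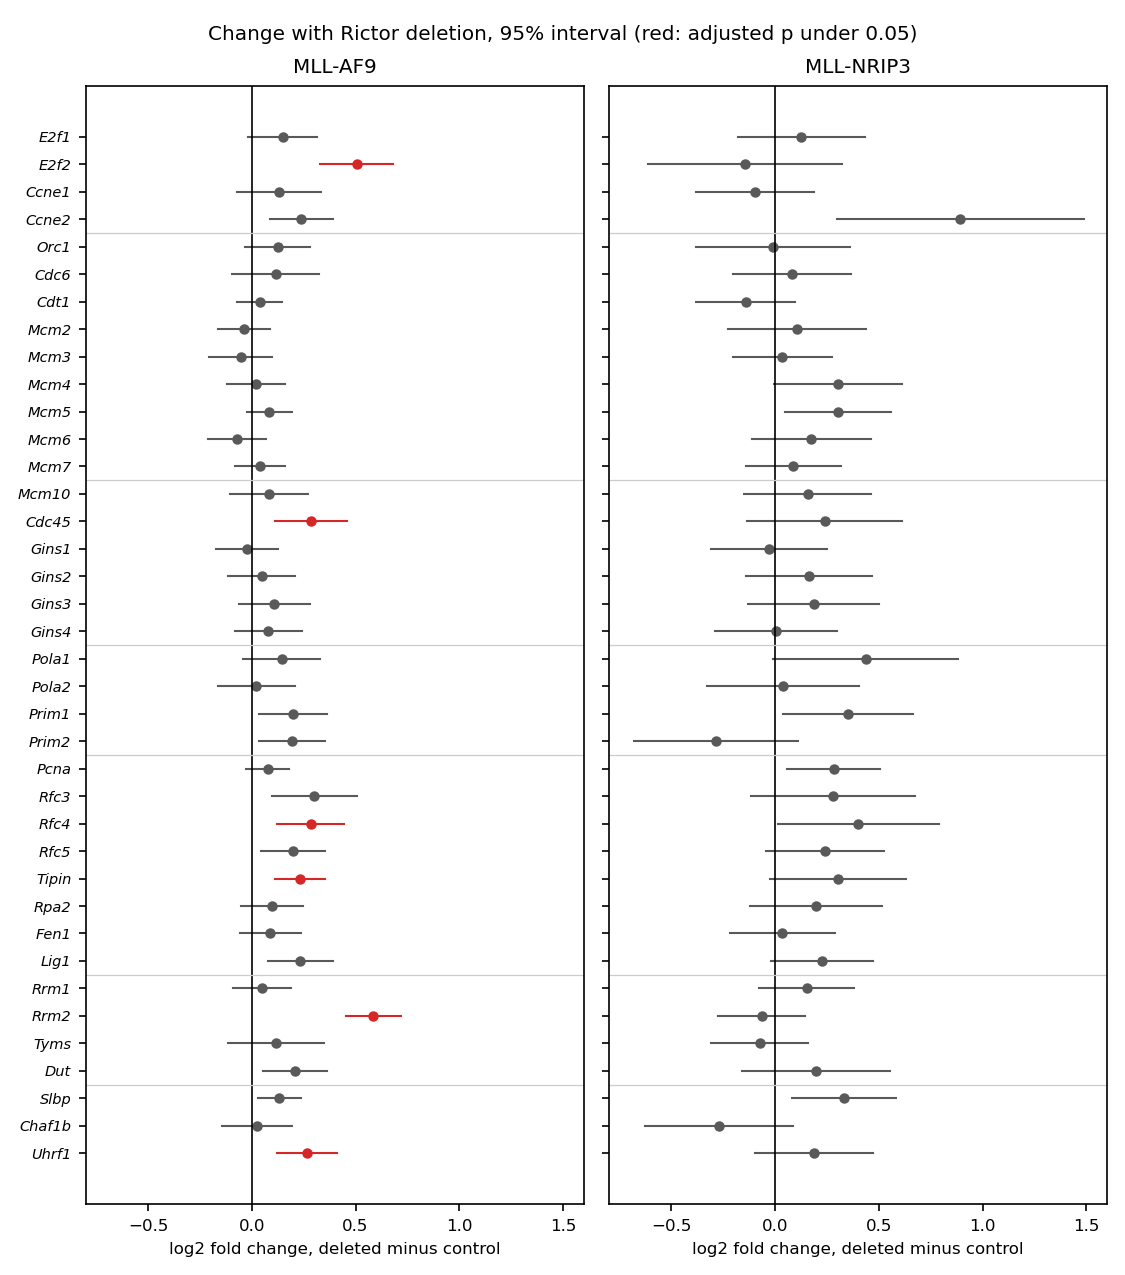
Log2 fold change of each of the 38 genes, deleted minus control (points), with its 95% confidence interval (lines), in MLL-AF9 (left) and MLL-NRIP3 (right), red where the adjusted p was under 0.05 and grey lines between roles. The 6 red points are all on the left, with Rrm2 at 0.59, while Ccne2 at 0.89 is the largest on the right with an interval from 0.30 to 1.49.

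Among the regulators of entry into S phase, E2f2, an activating E2F factor, rose in MLL-AF9 leukemia. It read 45.7, 49.1 and 46.1 against 79.0, 72.5 and 68.6 in MLL-AF9. The groups were well apart, and the log2 fold change was 0.50 ± 0.08 (SE, adjusted p = 0.0026), which a spread shared over 12 arrays raised to an adjusted p of 0.25. A further E2f2 probe set rose too, by 0.42. For MLL-NRIP3 the values were 281, 169 and 179 against 164, 218 and 171. There the groups overlapped, control 1 was the highest of the 6, and the fold change was -0.15 ± 0.21 (adjusted p = 0.75). The difference of the 2 responses was -0.65 ± 0.21 (95% interval -1.09 to -0.21, adjusted p = 0.093), short of the threshold.

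Ccne2, one of the E-type cyclins that start S phase, was higher on every deleted array than on every control in both models without passing the test in either. It read 98.9, 104 and 103 against 125, 126 and 119.5 in MLL-AF9, a change of 0.24 ± 0.07 (adjusted p = 0.057). MLL-NRIP3 arrays read 52.3, 79.6 and 115 against 131, 146 and 214, a change of 0.89 ± 0.26 (adjusted p = 0.14). The controls were widely spread, and the lowest were the 2 arrays that stood apart in hybridization controls and 5′ to 3′ ratios. Without them, which leaves a single control array, the change was 0.42. The 2 responses differed by 0.65 ± 0.24 (95% interval 0.14 to 1.17, adjusted p = 0.15).

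E2f1, the activating E2F factor best known for G1 exit, read 94.4, 95.9 and 94.5 against 101, 116 and 105 in MLL-AF9. Its groups did not overlap, but the change of 0.15 ± 0.07 did not pass (adjusted p = 0.28). Its MLL-NRIP3 values were 145, 156 and 128 against 163, 149.7 and 159, which overlapped, with a change of 0.13 ± 0.13. Ccne1, the other E-type cyclin, read 74.3, 69.8 and 88.4 against 92.5, 79.2 and 86.7 in MLL-AF9, a change of 0.13 ± 0.09, and 189, 176 and 187 against 160.3, 172 and 181 in MLL-NRIP3, a change of -0.09 ± 0.12. Neither passed in either model, and the groups of Ccne1 overlapped in both.

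**Figure D3:**
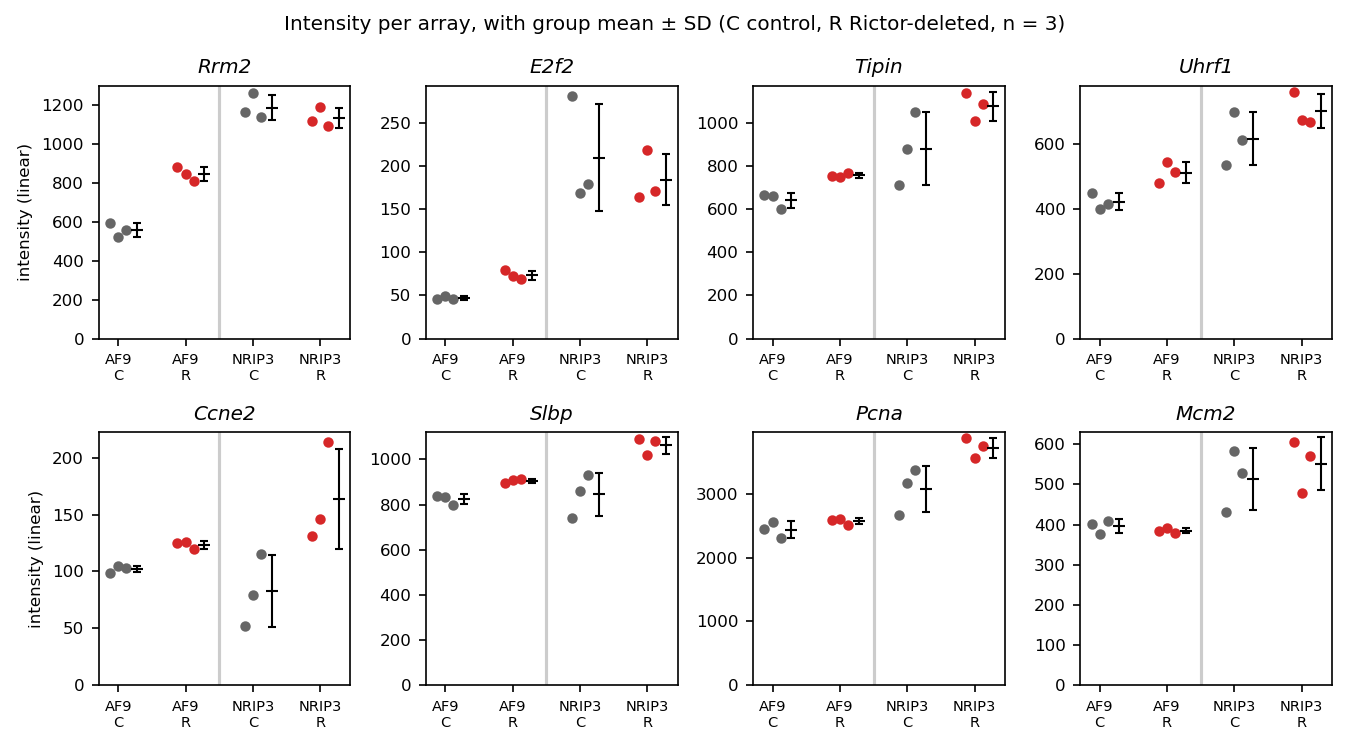
Intensity (linear axis from 0) of 8 of the genes on each array, as points, with the mean and SD of each group (n = 3) to the right of its points, control grey and deleted red. Rrm2 and E2f2 separate widely in MLL-AF9 and overlap in MLL-NRIP3, Ccne2, Slbp and Pcna are highest on the deleted MLL-NRIP3 arrays, and Mcm2 overlaps in both models; Mcm2 averaged 396 ± 17.8 and 385 ± 5.72 in MLL-AF9.

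The 9 origin licensing genes, which make up the origin recognition complex subunit Orc1, the loaders Cdc6 and Cdt1 and the 6 MCM helicase subunits, had 0 members called in either model. Their median change was 0.04 in MLL-AF9, below that of the 38 genes together, and 0.09 in MLL-NRIP3. In MLL-AF9, unadjusted p-values in limma were under 0.05 for 0 of the 9, and in MLL-NRIP3 for 1, Mcm5, which was also the 1 called by the fit over 12 arrays (0 in MLL-AF9). Mcm2 read 402, 376 and 409.7 against 384, 391 and 379.6 in MLL-AF9, which overlap. Its change was -0.04 ± 0.06, with a 95% interval from -0.16 to 0.09. In MLL-NRIP3 leukemia Mcm2 read 431, 584 and 527 against 605, 479 and 572, and overlapped too, at 0.10 ± 0.15.

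On the probe set used, Mcm5 was higher on all deleted arrays than on all controls in both models. It read 1221, 1160.3 and 1189 against 1227, 1319.8 and 1243 in MLL-AF9, a change of only 0.08 ± 0.05 (adjusted p = 0.36). MLL-NRIP3 arrays read 1035, 1329 and 1147 against 1507, 1463 and 1353, a change of 0.30 ± 0.11 (adjusted p = 0.21, and 0.034 in the fit over 12 arrays). A further Mcm5 probe set stood at 0.007 in MLL-AF9 and 0.25 in MLL-NRIP3, and a dimmer one at 0.13 and -0.005. With the mean of the probe sets the MLL-NRIP3 change was 0.18 (adjusted p = 0.52 in limma). Mcm4, another subunit of the ring, read 736, 890.5 and 715 against 1045, 1040.3 and 819.8 in MLL-NRIP3, where control 2 lay above deleted array 3. Its change was 0.30 ± 0.14 (adjusted p = 0.29), and in MLL-AF9, with 519, 508 and 541 against 509.7, 579 and 504, it was 0.02 ± 0.06. A further Mcm4 probe set disagreed in MLL-AF9, where it rose by 0.46 (adjusted p = 0.007 in a fit of all probe sets).

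Mcm6 read 865, 824 and 973 against 819.6, 866 and 839.6 in MLL-AF9, the lowest change of the 38 at -0.07 ± 0.06, with the highest value on a control array. Under MLL-NRIP3 it read 1062, 1488 and 1217 against 1378, 1443 and 1394, a change of 0.17, with both the highest and the lowest value among the controls. A further Mcm6 probe set had the opposite sign in both models. It stood at 0.26 in MLL-AF9 (adjusted p = 0.053 in a limma fit of all probe sets) and at -0.03 in MLL-NRIP3. Cdc6 read 198, 159 and 173 against 181, 220.0 and 178 in MLL-AF9, a change of 0.12 ± 0.10, and 260.1, 301 and 254 against 307, 283 and 274 in MLL-NRIP3, a change of 0.08 ± 0.12. Cdt1 read 847, 832 and 870.1 against 869.6, 896 and 852 in MLL-AF9 and 1451, 1685 and 1331 against 1375, 1310.5 and 1340.2 in MLL-NRIP3, with changes of 0.04 ± 0.05 and -0.14 ± 0.11. Both loaders overlapped between genotypes in both models. Orc1, Mcm3 and Mcm7 had log2 fold changes of 0.12, -0.05 and 0.04 in MLL-AF9 and -0.01, 0.04 and 0.09 in MLL-NRIP3, none past the threshold.

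Of the 6 genes that activate the helicase, 1 rose in MLL-AF9 and 0 were called in MLL-NRIP3, where limma gave 0 unadjusted p-values under 0.05 and the fit over 12 arrays called 0. Cdc45, which joins MCM and GINS into the working helicase, read 88.0, 87.5 and 75.2 against 104, 107 and 104 in MLL-AF9. The groups were apart, at 0.29 ± 0.08 (adjusted p = 0.048), but the call sat at the threshold and ended in 15 of 20 other settings. A further Cdc45 probe set had the opposite sign in MLL-AF9, at -0.11, and with the mean of the probe sets the change was 0.09. Values with MLL-NRIP3 were 153, 216 and 153 against 211, 220.5 and 187, which overlapped, a change of 0.24 ± 0.16. The GINS genes Gins1, Gins2, Gins3 and Gins4 had fold changes of -0.02, 0.05, 0.11 and 0.08 in MLL-AF9, and -0.03, 0.17, 0.19 and 0.00 in MLL-NRIP3. Mcm10, which helps to fire the loaded helicase, was at 0.08 and 0.16.

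The 4 genes of primase and polymerase alpha, which lay down the RNA and DNA primers, had no call in limma, with 2 unadjusted p-values under 0.05 in MLL-AF9 (Prim1 and Prim2), 1 in MLL-NRIP3 (Prim1), and no call in the fit over 12 arrays. Prim1, the catalytic primase subunit, read 444, 397 and 359 against 439.9, 481 and 458 in MLL-AF9, where control 1 lay above deleted array 1, a change of 0.20 ± 0.08 (adjusted p = 0.14). The MLL-NRIP3 arrays read 362, 447 and 475 against 606, 537 and 503, which were apart, a change of 0.35 ± 0.14 (adjusted p = 0.23). Prim2, the large primase subunit, had fold changes of opposite sign on the probe set used. It read 114, 115 and 106 against 126, 138 and 127 in MLL-AF9, apart, at 0.19 ± 0.07 (adjusted p = 0.14), and 255, 273 and 211 against 212, 233 and 157 in MLL-NRIP3, overlapping, at -0.28 ± 0.17 (adjusted p = 0.43). The difference of -0.48 ± 0.18 did not pass (adjusted p = 0.15). A further Prim2 probe set was above 0 in both models, at 0.34 in MLL-AF9 and 0.16 in MLL-NRIP3. Its difference was -0.18 (adjusted p = 0.70 in a limma fit of all probe sets). Another, dimmer one lay near 0, at -0.002 and -0.02.

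Pola1, the catalytic subunit of polymerase alpha, read 125, 213 and 201 against 234, 267 and 229 in MLL-NRIP3. All deleted arrays were above all controls, but control 1 was far below the others, and the change of 0.44 ± 0.20 did not pass (adjusted p = 0.29). In MLL-AF9 it read 179.9, 153 and 149.8 against 163, 183 and 191, overlapping, at 0.14 ± 0.08. Pola2, its accessory subunit, was at 0.02 and 0.04.

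All 8 genes of the clamp, the fork and the lagging strand had fold changes above 0 in both models, with medians of 0.22 in MLL-AF9, where 2 rose, and 0.26 in MLL-NRIP3, where 0 were called by limma (2 with an unadjusted p under 0.05, and 1, Pcna, called in the fit over 12 arrays). Tipin, which with Timeless holds the replisome together, read 664, 659 and 602 against 753, 747 and 769 in MLL-AF9. The deleted arrays were nearly alike and all above the controls, at 0.23 ± 0.05 (adjusted p = 0.023). That call ended in 6 of 20 other settings, with the adjusted p from 0.058 to 0.090 when control 3 or any deleted array was left out. For MLL-NRIP3 the values were 711, 880.2 and 1052 against 1139, 1006 and 1086, where control 3 lay above deleted array 2, a change of 0.30 ± 0.14 (adjusted p = 0.32). Adding the hybridization control signal to the fit turned that value to -0.02, while individual array weights gave 0.36 (adjusted p = 0.029).

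The clamp loader subunits Rfc3, Rfc4 and Rfc5, which open the Pcna ring onto DNA, had fold changes above 0 in both models. Rfc4 rose in MLL-AF9, where it read 177, 161 and 152 against 194, 198 and 213 with no overlap, by 0.28 ± 0.07 (adjusted p = 0.036), and lost that call in 9 of 20 other settings, among them the omission of any array but control 1 (adjusted p from 0.069 to 0.14). Its MLL-NRIP3 values were 171, 215 and 239.9 against 320.5, 288 and 233, with control 3 above deleted array 3, a change of 0.40 ± 0.17 (adjusted p = 0.26). Rfc3 read 149, 123 and 110.1 against 158, 155 and 165 in MLL-AF9, apart, at 0.30 ± 0.09 (adjusted p = 0.076), and was called without control 1 at 0.41 (adjusted p = 0.013). It read 131, 154 and 186 against 229.6, 167 and 184 in MLL-NRIP3, overlapping, at 0.28 ± 0.17. Rfc5 read 322, 283 and 287 against 320.4, 359.9 and 350.3 in MLL-AF9, where control 1 lay just above deleted array 1, at 0.20 ± 0.07 (adjusted p = 0.11), and 378, 397 and 351 against 447, 497 and 397 in MLL-NRIP3, barely apart, at 0.24 ± 0.12 (adjusted p = 0.36).

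Pcna, the sliding clamp itself, read 2457, 2568 and 2312 against 2597, 2608 and 2524 in MLL-AF9, overlapping, at 0.08 ± 0.05. Under MLL-NRIP3 it read 2679, 3178 and 3388 against 3884, 3571 and 3757. There the deleted arrays were all above the controls, of which control 1 was the lowest, and the change was 0.28 ± 0.10 (adjusted p = 0.19, and 0.033 in the fit over 12 arrays). Without MLL-NRIP3 control arrays 1 and 2, which leaves a single control array, it was 0.14. With hybridization control signal in the fit it was 0.09 (adjusted p = 0.93). Lig1, the ligase that joins lagging strand fragments, was apart in both models without a call. It read 375, 338 and 331 against 404, 447 and 385 in MLL-AF9, at 0.23 ± 0.07 (adjusted p = 0.073), passing without control 1 (0.29, adjusted p = 0.043), and 553, 614 and 583 against 659, 751 and 647 in MLL-NRIP3, at 0.23 ± 0.11 (adjusted p = 0.32). Fen1, the flap nuclease of the same step, was at 0.09 and 0.04, and Rpa2, of the single-strand binding complex, at 0.10 and 0.20.

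The smallest p among the 38 genes in MLL-AF9 was that of Rrm2, the small subunit of ribonucleotide reductase, which is made in S phase and limits the supply of deoxynucleotides. It read 594, 522 and 556 against 882, 846 and 806 in MLL-AF9. The groups lay far apart, and Rrm2 rose by 0.59 ± 0.06 (SE, adjusted p = 0.00015), rank 78 by p among 12582 genes, and kept its call in 20 of 20 other settings. Its 2 further probe sets rose as well, by 0.45 and 0.64, and in MLL-NRIP3 they stood at 0.10 and 0.20 without a call. MLL-NRIP3 arrays read 1160.3, 1259 and 1137 against 1117, 1189 and 1090.5. These overlapped, and the change was -0.06 ± 0.09 (95% interval -0.27 to 0.15, adjusted p = 0.75). The difference of the responses, MLL-NRIP3 minus MLL-AF9, was -0.65 ± 0.12 (adjusted p = 0.0068), the only one called among the 38, where 4.76% of all genes were called, 2.24% with the larger response in MLL-NRIP3 and 2.52% with the smaller. The unweighted fit over 12 arrays called Rrm2 alone too, against 4.31% of all genes (1.95% larger in MLL-NRIP3). The Rrm2 difference was called in 12 of 12 fits that left out 1 array. It did not pass with the mean of the probe sets (-0.48, adjusted p = 0.12) or with hybridization control signal in the fit (-0.61, adjusted p = 0.11). On the 2 further Rrm2 probe sets the difference was -0.36 and -0.44. Neither was called in a limma fit of all probe sets (adjusted p = 0.37 and 0.34). Without MLL-NRIP3 control arrays 1 and 2, which leaves a single control array, the Rrm2 difference was -0.59. The 250 bases before its start are printed with the CCAAT word in capitals, as the promoter of the gene that differed; none of the E2F letters stands in them.
Rrm2 (chr12:24708004-24708253, plus strand): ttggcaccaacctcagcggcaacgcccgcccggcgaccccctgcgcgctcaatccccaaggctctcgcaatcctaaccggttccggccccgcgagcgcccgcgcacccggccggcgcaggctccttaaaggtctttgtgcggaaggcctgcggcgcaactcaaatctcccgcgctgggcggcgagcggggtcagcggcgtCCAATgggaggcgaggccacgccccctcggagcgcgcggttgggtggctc

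Rrm1, the large subunit of the same enzyme, read 459, 431 and 487 against 486, 491 and 448 in MLL-AF9, overlapping, at 0.05 ± 0.06 (adjusted p = 0.72). Values with MLL-NRIP3 were 878, 909 and 902 against 962, 1103 and 939, apart, at 0.15 ± 0.10 (adjusted p = 0.47). Only the small subunit was called in MLL-AF9, and the difference between the subunits was not tested. Dut, which removes dUTP, read 513, 447 and 438 against 538, 568 and 512 in MLL-AF9, where deleted array 3 lay just under control 1, at 0.21 ± 0.07 (adjusted p = 0.099), and passed without control 1 (0.28, adjusted p = 0.028). The MLL-NRIP3 arrays read 518, 729 and 773 against 816, 705 and 771, with control 1 far below, at 0.20 ± 0.16. Tyms, thymidylate synthase, was dim on this probe set, at 18.6 ± 3.88 in MLL-AF9 controls (SD, n = 3), with fold changes of 0.12 and -0.07.

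Of the chromatin genes, Uhrf1, which brings Dnmt1 to newly made DNA, rose in MLL-AF9. It read 451, 401 and 417 against 479, 545 and 514 in MLL-AF9, apart, at 0.27 ± 0.07 (adjusted p = 0.028), a call that ended in 9 of 20 other settings, including the omission of control 2, control 3, deleted array 2 or deleted array 3 (adjusted p from 0.079 to 0.13). For MLL-NRIP3 the values were 537, 701 and 612 against 762, 676 and 668, overlapping, at 0.19 ± 0.13. A further, dimmer Uhrf1 probe set stood at 0.12 in MLL-AF9 and 0.66 in MLL-NRIP3. Neither was called in a limma fit of all probe sets (adjusted p = 0.47 and 0.14). Its difference of responses was 0.54 (adjusted p = 0.16 in that fit), against -0.08 on the probe set used. Slbp, which binds the stem loop of histone mRNAs, was apart in both models. It read 838, 836 and 799 against 894, 910.3 and 911 in MLL-AF9, at 0.13 ± 0.05 (adjusted p = 0.12), and 741, 862 and 931 against 1089, 1019.6 and 1082 in MLL-NRIP3, at 0.33 ± 0.11 (adjusted p = 0.17, and 0.017 in the fit over 12 arrays). Without MLL-NRIP3 control arrays 1 and 2, which leaves a single control array, the Slbp change was 0.19. With hybridization control signal in the fit it was 0.15 (adjusted p = 0.87). Chaf1b, a subunit of the chaperone that places histones on new DNA, read 187, 176 and 151 against 154, 149.7 and 116 in MLL-NRIP3, overlapping, at -0.27 ± 0.16 (adjusted p = 0.41), and 38.3, 43.7 and 42.3 against 42.9, 43.0 and 41.5 in MLL-AF9, at 0.03 ± 0.08.

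Apart from Rrm2, the responses of the 2 models did not differ past the threshold for any of the 38. E2f2, Ccne2 and Prim2 had the next smallest p-values, with the differences given above. For Pcna, Mcm5, Mcm4, Slbp, Mcm6 and Pola1 the response was larger in MLL-NRIP3 by 0.21, 0.22, 0.28, 0.20, 0.25 and 0.29, and for Chaf1b, Ccne1 and Cdt1 smaller, at -0.30, -0.23 and -0.18, with adjusted p-values from 0.34 to 0.57. With hybridization control signal in the fit, the differences of Pcna, Slbp and Pola1 were 0.04, 0.03 and 0.05. Those of Mcm5, Mcm4 and Mcm6 were 0.17, 0.34 and 0.15. Without MLL-NRIP3 control arrays 1 and 2, which leaves a single control array, they were 0.06, 0.05 and 0.11, and 0.24, 0.40 and 0.28. Averaging the probe sets of each gene turned the Mcm6 difference to -0.03 (adjusted p = 0.94) and left that of Mcm4 at 0.01 (adjusted p = 0.98). Intervals were wide, from -0.03 to 0.44 for Pcna and from -0.17 to 0.76 for Pola1, so they do not show that the models respond alike. Without MLL-NRIP3 control 3 a second gene, Ccne2, was called (0.89, adjusted p = 0.022). There 1106 of all 12582 genes were called, 528 with the larger response in MLL-NRIP3. Individual array weights called E2f2 (-0.63, adjusted p = 0.019) and Prim2 (-0.45, adjusted p = 0.024) beside Rrm2, 3 of the 38, where they called 20% of all genes, 8.19% with the smaller response in MLL-NRIP3.

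The spread between arrays was larger in MLL-NRIP3 than in MLL-AF9. The median SD of the 38 genes on the log2 scale was 0.085 in MLL-AF9 controls and 0.070 after deletion, against 0.17 and 0.11 in MLL-NRIP3. Over all genes tested it was 0.076 and 0.062 in MLL-AF9, against 0.145 and 0.136 in MLL-NRIP3. Single arrays were the highest or the lowest of their model for many of the genes. The same count was not made over all genes, so movement shared by these genes was not tested. Deleted array 2 of MLL-AF9 was the highest of its model for 20 of the 38, and controls 3 and 2 the lowest for 15 and 13. Control 3 also had the lowest 5′ to 3′ ratios of that model, at 0.901 for Gapdh (1.01 to 1.09 on the others) and 0.521 for Actb (0.607 to 0.667); the part of this was not tested. In MLL-NRIP3 control 1 was the lowest for 19 and deleted array 1 the highest for 17. The mean of the 38 genes, as a deviation from the mean of the model's 6 arrays, was -0.03, -0.09 and -0.09 in MLL-AF9 controls and 0.05, 0.11 and 0.05 after deletion, which did not overlap. In MLL-NRIP3 it was -0.16, 0.03 and -0.07 in controls and 0.12, 0.09 and 0.00 after deletion, where control 2 lay above deleted array 3.

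**Figure D4:**
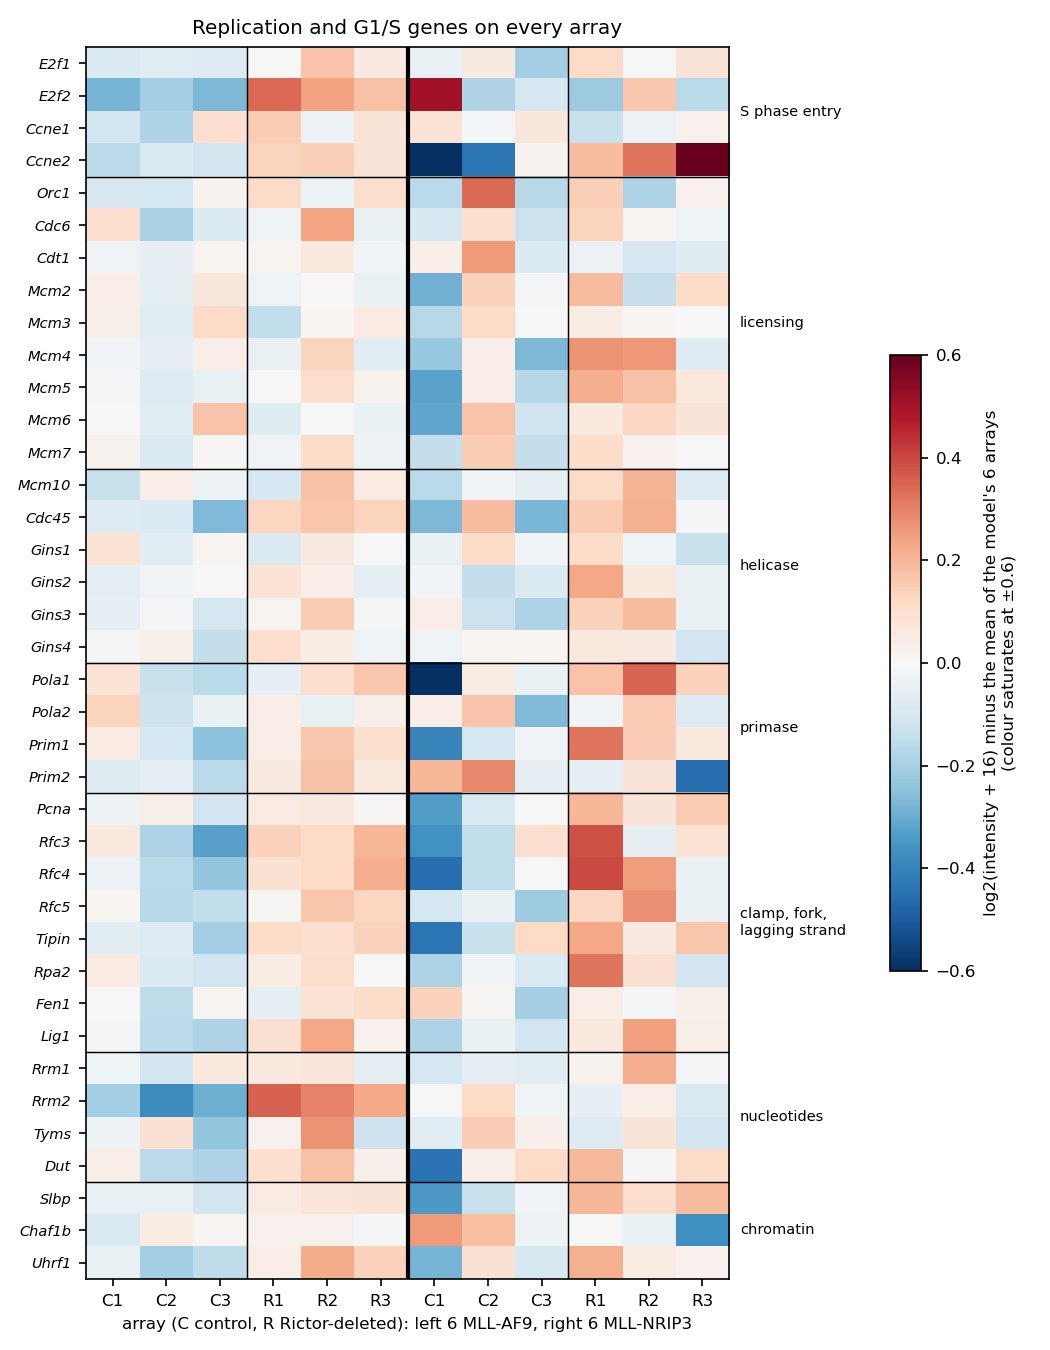
Each row is 1 of the 38 genes, grouped by role, and each column 1 array (C control, R Rictor-deleted; MLL-AF9 left, MLL-NRIP3 right of the thick line); colour is log2(intensity + 16) minus the gene's mean over the model's 6 arrays, saturating at ±0.6. Rrm2 and E2f2 change from blue to red with deletion in MLL-AF9, and control 1 of MLL-NRIP3 is blue for many genes, being the lowest array for 19 of them.

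Most of the genes were represented by more than 1 probe set. There were 7 genes with 1 and 31 with several, and 38 further probe sets were bright enough to test. Of these, 31 had the same sign as the one used in MLL-AF9 and 21 in MLL-NRIP3. In MLL-AF9, 4 of them were called higher, of Rrm2 (2 probe sets), E2f2 and Mcm4, and 0 lower. In MLL-NRIP3 limma called 0 of them.

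A list of 67 other replication and G1/S genes, 65 of them tested, had, in MLL-AF9, 8 called higher and 0 lower, 48 fold changes above 0 and a median of 0.05. The 8 are 12.3% of the 65, where 8.26% of all genes were called, 3.79% higher. Of all genes, 45.7% had a fold change above 0. Asf1b, a histone chaperone of S phase, read 260.1, 284 and 277 against 441, 458 and 414 in MLL-AF9, far apart, at 0.65 ± 0.06 (adjusted p = 8.8e-05). Dck, the kinase that salvages deoxycytidine, read 194, 163 and 165 against 252, 239 and 250.1 in MLL-AF9, also apart, at 0.47 ± 0.07 (adjusted p = 0.0025). Gmnn, which blocks Cdt1 after licensing, and Rnaseh2c, of the RNase that removes ribonucleotides from DNA, rose by 0.27 ± 0.05 and 0.25 ± 0.06, and the other 4 called were Dscc1, E2f8, Dna2 and Mybl2. In MLL-NRIP3, 48 fold changes were above 0 (50% of all genes) with a median of 0.12. The fit over 12 arrays called 9 higher and 2 lower, where it called 13.7% of all genes, 5.95% higher. Limma on the model's own arrays called 0, where it called 1.56% of all genes. Its unadjusted p-values were under 0.05 for 11 higher (7.89% of all genes) and 3 lower. The smallest p-values there were those of Cdc7, the kinase that fires origins, at 0.55 ± 0.14 (adjusted p = 0.099), Wdhd1, a replisome scaffold, at 0.41 ± 0.11, Dck at 0.55 ± 0.16 and Asf1a, a sister of Asf1b, at -0.49 ± 0.15. The difference of responses was called for Asf1b alone of the 65, at -0.55 ± 0.13 (adjusted p = 0.022), where 4.76% of all genes were called. The next smallest p-values were those of Orc4 (0.61), Asf1a (-0.43) and Hells (0.50).

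The G2 and M phase list, 39 genes tested, had 38 fold changes above 0 in MLL-AF9, 9 called higher and 0 lower, and a median of 0.22. The 9 are 23.1% of the 39, where 8.26% of all genes were called, 3.79% higher. In MLL-NRIP3 28 were above 0 and the median was 0.08. Limma called 0 (1.56% of all genes), with an unadjusted p under 0.05 for 4, all higher (7.89% of all genes). The fit over 12 arrays called 1 (13.7% of all genes). Of the 38 genes, 13 tested genes had the E2F letters and 18 had a window without them, and 2 and 3 of these rose in MLL-AF9, with medians of 0.12 in both sets. In MLL-NRIP3 those medians were 0.17 and 0.16.

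Genes of other cell states moved with Rictor deletion beside the replication genes, and their part in the results was not tested. Of 15 mature neutrophil genes tested, all 15 were called higher in MLL-AF9, with a median log2 fold change of 2.07, and 4 were called lower in MLL-NRIP3, with a median of -1.28. Their mean deviation ran from -1.27 to -0.71 in MLL-AF9 controls and from 0.88 to 1.16 after deletion, and in MLL-NRIP3 from 0.16 to 1.58 in controls and from -0.83 to -0.66 after deletion. In MLL-AF9, 6 of 11 monocyte and macrophage genes, 3 of 7 eosinophil, mast cell and basophil genes and 2 of 6 B lineage genes were lower, and in MLL-NRIP3 1 of the 7 was higher and 1 of the 6 lower, while limma called 0 of the 11 (2 with an unadjusted p under 0.05, and 0 in the fit over 12 arrays). Of all genes tested, limma called 3.79% higher and 4.47% lower in MLL-AF9, and 0.795% and 0.763% in MLL-NRIP3. None of the 4 T lineage genes or the 2 erythroid genes tested was called by limma in either model, at an adjusted or an unadjusted p under 0.05, and none in the fit over 12 arrays. Kit, the receptor of stem and progenitor cells, read 232, 159.6 and 192 against 137, 157 and 135 in MLL-AF9, at -0.39 ± 0.11 (adjusted p = 0.055), and 307, 390.2 and 326 against 572, 406 and 593 in MLL-NRIP3, at 0.58 ± 0.17 (adjusted p = 0.13). The groups of Kit did not overlap in either model, and the difference of 0.98 ± 0.25 between the responses was called (adjusted p = 0.04).

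**Figure D5:**
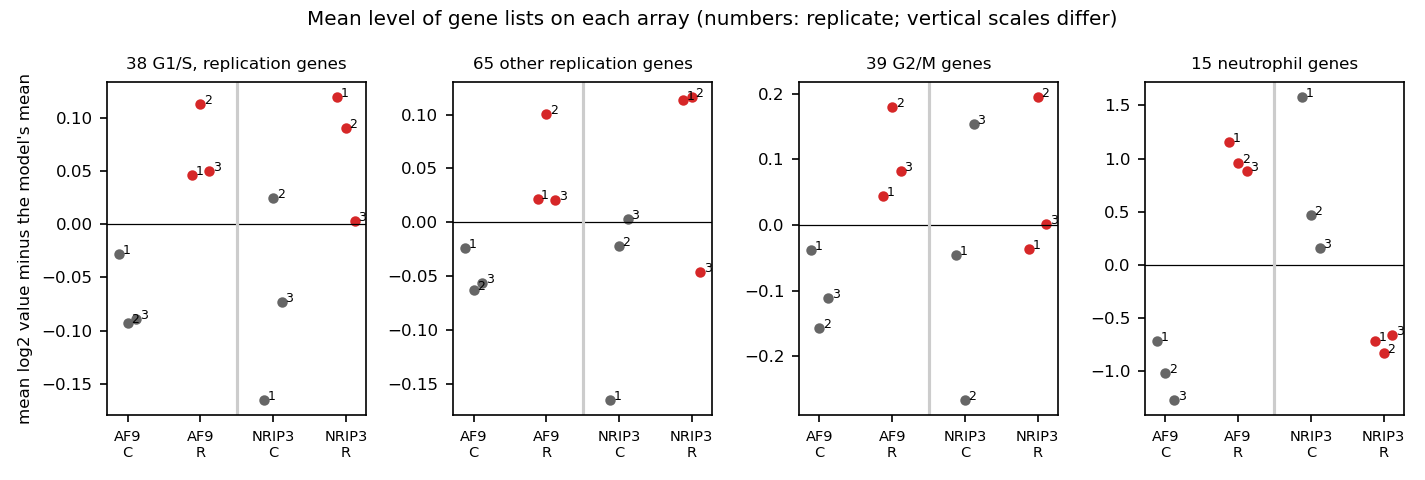
Mean of each gene list on each array, as log2(intensity + 16) minus the mean of the model's 6 arrays (vertical scales differ between panels), control grey and deleted red, with the replicate number beside each point. The 38 genes separate by genotype in MLL-AF9 and overlap in MLL-NRIP3, while the 15 mature neutrophil genes are higher after deletion in MLL-AF9 (0.88 to 1.16) and lower in MLL-NRIP3 (-0.83 to -0.66).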

How the data were processed

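Expression was measured on 12 Affymetrix arrays from 7 µg of total RNA each, extracted with Trizol and labelled as biotin cRNA per the labels' protocols. The authors deposited intensities on a linear scale. Their summarisation and normalization are not stated in the labels. Of 45101 probe sets, 34958 had 1 symbol in the platform annotation. Each gene was taken from its brightest such probe set over the 12 arrays, and genes with a mean under the 40th percentile (7.58) were left out. Promoter sequences are from RefSeq (GRCm38.p6).

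Values were used as log2(intensity + 16). Each model was fitted on its own 6 arrays with limma 3.58.1 in R 4.3.3 (trended eBayes, 2-sided, 4 residual degrees of freedom), with p-values adjusted by Benjamini-Hochberg over 12582 genes and calls at an adjusted p under 0.05. The difference of responses used all 12 arrays with 1 weight per model (2.09 for MLL-AF9 and 0.479 for MLL-NRIP3). Spread was pooled over 3 arrays per group, and their number limits the precision. An exact permutation test of 3 against 3 cannot go below 0.1 and was not used. Promoters and plots were handled in Python 3.11.15 with pandas 2.3.3 and matplotlib 3.10.9. The code was tested on simulated data.

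The genes and lists were chosen with earlier results of these data known. Values on every array are given for up to 12 genes with the smallest p per contrast and for Mcm2, Mcm5, Pcna, Ccne1, Ccne2, E2f1, Rrm1 and Cdc6, and up to 4 genes per contrast are named from the list of other replication genes. The further genes named as called there, Xist, Eif2s3y and the genes with further probe sets that were called were chosen after their values were seen.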

Additional observations from a re-analysis of the deposited data

Results flagged for a closer look

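The response of Rrm2 to Rictor deletion differed between the models by a test of the difference itself. It was -0.65 on the log2 scale, MLL-NRIP3 minus MLL-AF9 (limma adjusted p = 0.0068). With the mean of the probe sets it did not pass (-0.48, adjusted p = 0.12). Nor did it with hybridization control signal in the fit (-0.61, adjusted p = 0.11). The difference was not called on either of the 2 further Rrm2 probe sets. In MLL-AF9, genotype and the sex of the mice cannot be told apart.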

How the results depend on the processing

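Of the values of single named genes under other settings, 755 kept their direction and their side of the threshold. A call was lost for 43 and gained for 28, whatever the size of the change, and 2 reversed in sign. Most of these genes were not called in the fits reported above, so keeping their side meant staying uncalled. The cause of the changes was not tested. One spread over all 12 arrays gave 1 of the 38 genes and 174 of all genes in MLL-AF9, and 4 and 1724 in MLL-NRIP3. Individual array weights gave 9 of the 38 and 2997 of all genes in MLL-NRIP3, and 3 and 2522 for the difference. With hybridization control signal in the fit the counts were 3 of the 38 in MLL-AF9, 30 of all genes in MLL-NRIP3, and 0 and 173 for the difference, and Tipin in MLL-NRIP3 was at -0.0226 (adjusted p = 0.99). Averaging the probe sets of each gene gave 83 of all genes in MLL-NRIP3 and 0 of the 38 for the difference, with the Mcm6 difference at -0.0263 (adjusted p = 0.94). Without MLL-NRIP3 control arrays 1 and 2 the counts were 25 of all genes in MLL-NRIP3, and 0 and 242 for the difference. At an adjusted p under 0.1 they were 10 and 1576 in MLL-AF9, 471 of all genes in MLL-NRIP3, and 2 and 987 for the difference. At an adjusted p under 0.01 they were 2 and 466 in MLL-AF9, 29 of all genes in MLL-NRIP3, and 235 of all genes for the difference.

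Leaving out 1 array at a time gave 2 to 9 of the 38 and 587 to 960 of all genes in MLL-AF9, with a median change of 0.0738 to 0.1354. It gave 0 to 1 of the 38 and 30 to 865 of all genes in MLL-NRIP3, and 1 to 2 of the 38 and 293 to 1106 of all genes for the difference. With the replicate block, 3 of the 38 and 950 of all genes were called in MLL-AF9, 0 and 174 in MLL-NRIP3, and 1 and 524 for the difference. Whether arrays with the same number were paired is not known here. Their deviations correlated at -0.10, -0.05 and 0.02 in MLL-AF9 and 0.06, -0.13 and -0.05 in MLL-NRIP3, which cannot settle it. Other pseudocounts and filters, quantile normalization, median centring and moderation without a trend moved no count of calls past 1.5 times. A Welch test of the difference, added after the data were seen, kept the call of Rrm2 (adjusted p = 0.0026). Dim probe sets such as that of Tyms limit what could be seen.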
